A study of Mus musculus with 48 samples.

Results

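Reactive astrocytes are followed here through 8 genes that astrocytes raise when the brain is injured, inflamed or loaded with amyloid. The genes were chosen by symbol, and each of the 8 matched exactly 1 of the 48709 genes in the count tables. Gfap and Vim encode the intermediate filament proteins of the astrocyte cytoskeleton, Serpina3n a secreted inhibitor of serine proteases and Aqp4 the water channel of astrocyte endfeet. Cd44 encodes the cell surface receptor for hyaluronan and Osmr the receptor subunit that binds oncostatin M. Steap4 encodes a metalloreductase and Lcn2 a secreted lipocalin that binds iron-carrying siderophores. Astrocytes respond to cytokines that share the gp130 receptor subunit through the transcription factor STAT3, and raised Gfap is the classical sign of the reactive state. In the dentate gyrus (DG), the entry region of the hippocampus, Gfap is also made by radial glia-like neural stem cells, and several of the other genes are expressed by meningeal, vascular or immune cells.

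RNA of whole tissue was sequenced in 46 male mice labelled as C57BL/6J, counted as separate animals. Fmn2-/- mice, in which the gene of the actin-nucleating protein formin 2 is disrupted, were compared with Fmn2+/+ mice at 3 months (5 Fmn2-/- and 5 Fmn2+/+) and at 8 months (5 Fmn2-/- and 3 Fmn2+/+). A cross with the amyloid line APPPS1-21, which expresses human amyloid transgenes from the neuronal Thy1 promoter, gave 7 mice of 3 months labelled FMN2-/-_APP (titled W) and 9 mice of the same age labelled FMN2 +/+ APP (titled K). A further 6 mice labelled APP and 6 labelled wild type, of 4 months, carry the word PFC (prefrontal cortex) in their titles but dentate gyrus in their tissue field. Their age is that of the age field, while the titles also name other ages, so it is uncertain.

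The labels and the data disagreed at 2 places that bear on every result of those mice. Levels are given in CPM, the reads of a gene relative to all reads counted in that mouse, scaled between all 46 mice by the TMM method. Fmn2 was at 93.1 to 109 CPM in Fmn2+/+ and 22.2 to 27.4 CPM in Fmn2-/- mice of 3 months, and at 90.8 ± 15.2 CPM (SD, n = 3) and 21.6 to 28.2 CPM at 8 months. In the cross it was at 90.9 ± 6.86 CPM (SD, n = 7, lowest 83.3) in the mice labelled FMN2-/-_APP and at 18.9 to 23.4 CPM in those labelled FMN2 +/+ APP, against both labels. Groups were kept as labelled, and each direction within the cross is that of the labels. Prox1, a marker of dentate granule cells, was at 11.4 to 20.4 CPM in the 12 mice titled PFC against 181 to 371 CPM in the other mice. These 12 mice are called cortex mice below, after their titles. Between 6818809 and 43921030 reads were counted on genes per mouse (median 24470686). In the Fmn2-/- group of 8 months, mice 2 and 3 differed by little more than sampling noise (a chi-square of 1.62 per degree of freedom). The other pairs of that group gave 3.50 to 6.40, and 2 runs of 1 mouse in the cross gave 1.72 and 2.15. This measure grows with read depth, which was not matched between these pairs. Whether mice 2 and 3 are 1 animal was not tested. The called members whose fit holds both mice, Aqp4 at 8 months and Gfap for age, are also given with both counted as 1.

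All 8 genes are protein-coding, and Aqp4 is located where its values are given. In the mm10 build Gfap (ENSMUSG00000020932) lies on chromosome 11 from 102887336 to 102900912, Vim (ENSMUSG00000026728) on chromosome 2 from 13573927 to 13582826 and Serpina3n (ENSMUSG00000021091) on chromosome 12 from 104406729 to 104414329. Cd44 (ENSMUSG00000005087) lies on chromosome 2 from 102811141 to 102901665, and Osmr (ENSMUSG00000022146) on chromosome 15 from 6813577 to 6874969. Steap4 (ENSMUSG00000012428) lies on chromosome 5 from 7960457 to 7982213 and Lcn2 (ENSMUSG00000026822) on chromosome 2 from 32384633 to 32388252. The promoter sequences of Gfap, the member that changed most often, and of Steap4, the only member with a STAT-type motif in the window searched, are shown as the 250 bases before the gene start in RefSeq (GRCm38.p6), 5′ to 3′ on the gene's own strand. The Gfap window is chr11:102897201-102897450 on the minus strand, which lies wholly inside the longer GENCODE gene given above. The Steap4 window is chr5:7960222-7960471 on the plus strand, whose last bases lie in an exon of the longer GENCODE model. The windows of Vim, Osmr and Lcn2, not shown, also lie inside their GENCODE genes. Capitals mark the motif matches, which in Gfap are absent.
Gfap: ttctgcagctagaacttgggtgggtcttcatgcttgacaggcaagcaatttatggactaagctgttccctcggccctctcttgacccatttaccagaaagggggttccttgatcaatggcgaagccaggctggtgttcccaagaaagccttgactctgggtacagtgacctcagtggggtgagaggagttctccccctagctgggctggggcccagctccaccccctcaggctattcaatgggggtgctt
Steap4: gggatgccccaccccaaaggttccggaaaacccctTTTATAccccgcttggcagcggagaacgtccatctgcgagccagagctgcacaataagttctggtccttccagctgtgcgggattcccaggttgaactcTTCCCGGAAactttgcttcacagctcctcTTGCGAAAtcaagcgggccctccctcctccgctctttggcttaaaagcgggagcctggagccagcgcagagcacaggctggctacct
The motifs searched, on both strands, were the STAT-type palindrome TTCNNNGAA, the AP-1 motif TGANTCA, the C/EBP motif TTGCNNAA and the TATA box TATAAA. Of 27025 mouse promoters of this length, 7.18%, 6.87%, 9.55% and 13% held them, in that order. RefSeq gave a window for 7 of the 8 members, all but Aqp4. The Steap4 window held TTCCCGGAA starting 116 bases before the start, TTGCGAAA at 87 bases and a TATA box on the other strand at 215 bases. Lcn2 held the C/EBP motif at 216 bases and Vim a TATA box at 32 bases, while the windows of Gfap, Serpina3n, Cd44 and Osmr held none of the 4 motifs. These matches are descriptions of letters and not of bound sites.

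**Figure D1:**
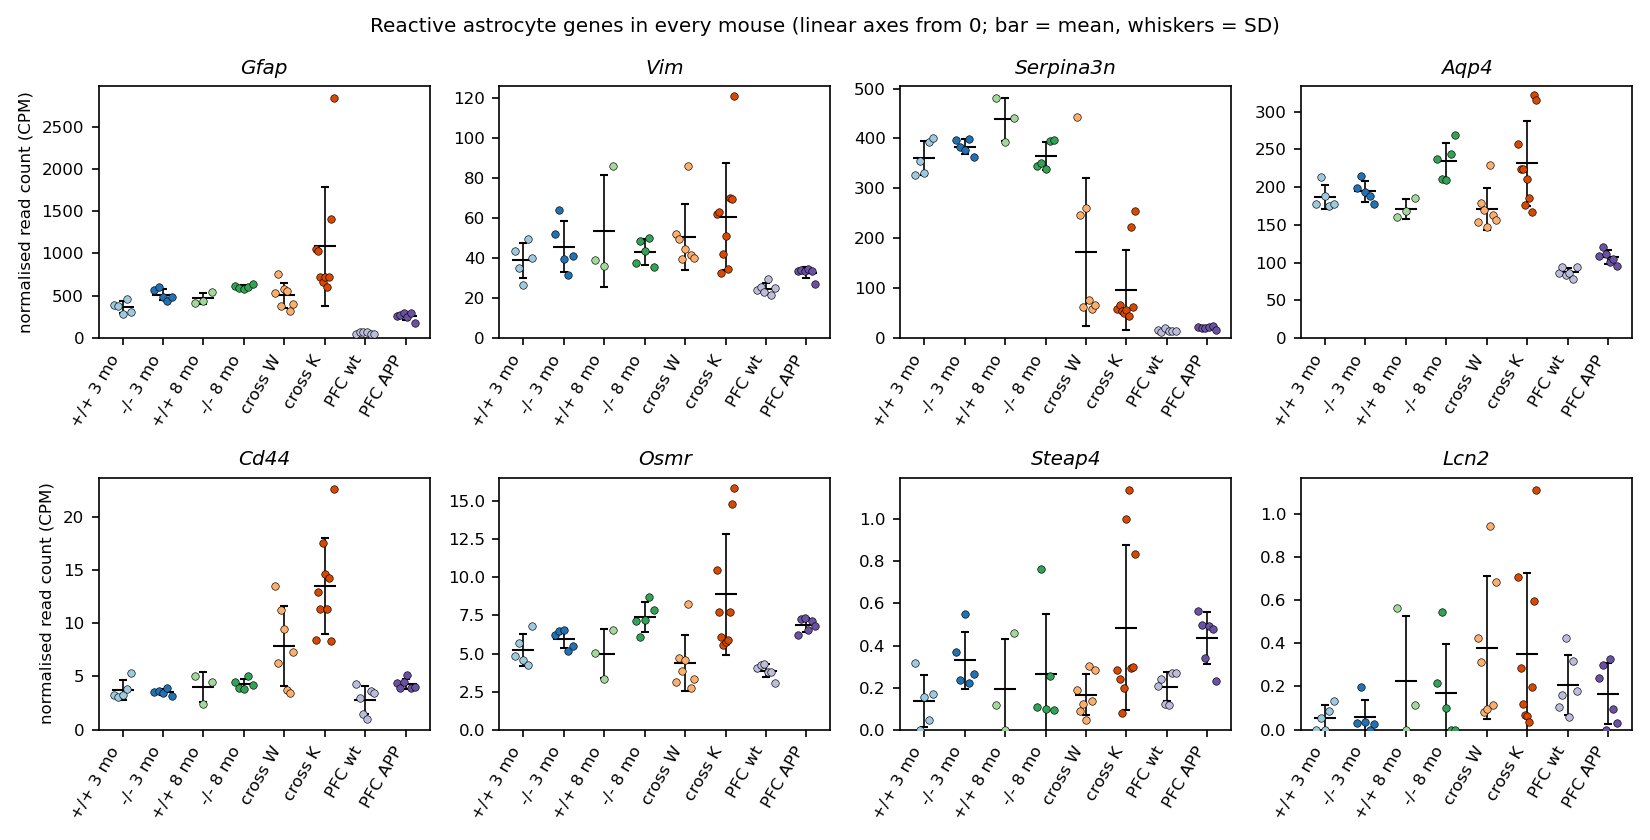
Levels of the 8 genes in every mouse, 1 panel a gene, in CPM on linear axes from 0, with 1 point a mouse and the mean ± SD of each of the 8 groups. Gfap was lowest in cortex mice labelled wild type (60.7 ± 8.54 CPM) and reached 2840 CPM in mouse K9, and Serpina3n fell into a high and a low range within both cross groups.

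Per kilobase of exon, which allows genes to be compared, Serpina3n and Gfap made up most of the summed level of the 8 genes in the DG. In 3-month-old Fmn2+/+ mice Serpina3n stood at 175 CPM per kb (58.1% of the sum), Gfap at 87.2 (28.9%), Aqp4 at 30.0 (9.95%) and Vim at 8.21 (2.72%). Cd44 and Osmr, the receptor genes, were at 0.552 and 0.431 CPM per kb, and Steap4 and Lcn2 at 0.0434 and 0.0211. Serpina3n ranked first in all 4 groups of the Fmn2 experiments (47.9% to 58.4% of the sum). Gfap ranked first in both cross groups and both cortex groups, with 49.1% in mice labelled FMN2-/-_APP, 72.1% in mice labelled FMN2 +/+ APP, 34.3% in wild type cortex and 63.2% in APP cortex. Steap4 and Lcn2 were covered by few reads, for Lcn2 7 and 8 reads summed over the 3-month Fmn2+/+ and Fmn2-/- groups, and differences in them were mostly below what these depths can detect. Where the filter on low counts kept them out of a test, fits without the filter gave Steap4 1.21 on the log2 scale for Fmn2 at 3 months, 0.60 at 8 months, -1.54 for W minus K in the cross, 1.03 for APP in cortex and 0.39 for amyloid in the DG. Lcn2 gave -0.12 and -1.19 for Fmn2 at 3 and 8 months, -0.91 for age by genotype, 1.98 for age, 0.15 in the cross and -0.31 in cortex. None of these 11 values passed (lowest adjusted p = 0.0852, by edgeR).

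In the order of group means, Gfap (CPM) was highest in mice labelled FMN2 +/+ APP (1090 ± 708, SD, n = 9), followed by Fmn2-/- mice of 8 months (608 ± 24.3, n = 5), Fmn2-/- mice of 3 months (513 ± 65.6, n = 5), mice labelled FMN2-/-_APP (504 ± 147, n = 7), Fmn2+/+ mice of 8 months (468 ± 69.9, n = 3), Fmn2+/+ mice of 3 months (368 ± 70.4, n = 5), APP cortex (259 ± 42.7, n = 6) and wild type cortex (60.7 ± 8.54, n = 6). The ranges of neighbouring groups in this order overlapped except at the last step. For Aqp4 the order ran from Fmn2-/- mice of 8 months (235 ± 24.4 CPM) to wild type cortex (87.4 ± 5.87 CPM), and the last 2 steps, down to the 2 cortex groups, were without overlap. For Vim, Cd44, Osmr, Steap4 and Lcn2 the ranges of all neighbours overlapped. For Serpina3n only the step from the cross (at least 44.9 CPM in each mouse) to the cortex (at most 24.9 CPM) was without overlap.

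The first comparison asked whether loss of Fmn2 changed these genes in the DG of young mice. At 3 months Gfap was the member furthest from 0. Its levels in the 5 Fmn2+/+ mice were 396, 382, 285, 463 and 313 CPM, and in the 5 Fmn2-/- mice 564, 599, 481, 441 and 480 CPM. Only the lowest Fmn2-/- mouse lay within the Fmn2+/+ range, but the difference did not pass across all genes (log2 fold change 0.48 ± 0.13 SE, edgeR quasi-likelihood test, adjusted p = 0.249, unadjusted p = 0.00264), whereas DESeq2 called it (adjusted p = 0.0282). Vim, the partner filament, gave 0.22 on the log2 scale, Osmr 0.19, Serpina3n 0.08, Aqp4 0.05 and Cd44 -0.09. A gene counted as called in the Fmn2 and age comparisons at an adjusted p under 0.05 and a log2 fold change of at least 0.25. By edgeR 0 of the 6 members tested were called (1 at an unadjusted p under 0.05 and 1 by DESeq2), against 0.0301% of the 16630 genes tested, and the median of the members was 0.13 against 0.00 for all genes. At an unadjusted p under 0.05 were 1750 of these 16630 genes. Member counts by DESeq2, here and below, are given without the share of all genes that DESeq2 called. In bulk tissue fewer cells of a type and less RNA per cell cannot be told apart, here or in any comparison below.

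In the related lists no gene was called in that comparison by edgeR. Of the astrocyte genes associated with neuroinflammatory reactivity (A1-type list), 0 of 11 were called, of the A2-type list 0 of 10, of the other pan-reactive genes 0 of 4, of the gp130 and STAT3 pathway 0 of 10, and of the genes that define resting astrocytes 0 of 13. The nearest to the threshold were the microglial genes Tyrobp (0.43 ± 0.10, adjusted p = 0.21) and Tmem119 (0.35 ± 0.087, adjusted p = 0.215), the astrocyte gap junction gene Gja1 (-0.22 ± 0.054, adjusted p = 0.21) and the endothelial tight junction gene Cldn5 (0.49 ± 0.14, adjusted p = 0.28). Markers of other cells varied between the mice: the summed level of 4 choroid plexus genes was 4100 CPM in Fmn2-/- mouse 4 against 23.2 to 66 CPM in the other 9 mice, while Gfap in that mouse was the median of its group (481 CPM). Genotype and lane of sequencing also went together, since 4 of the Fmn2-/- mice were sequenced on another lane than the rest, and cannot be told apart for those mice.

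At 8 months the same comparison gave Aqp4 as the only called member. Aqp4 (ENSMUSG00000024411, chromosome 18 from 15389496 to 15410982 in mm10) stood at 160, 169 and 186 CPM in the 3 Fmn2+/+ mice and at 238, 211, 210, 244 and 269 CPM in the 5 Fmn2-/- mice. Every Fmn2-/- mouse lay above every Fmn2+/+ mouse, and the gene rose by 0.46 ± 0.094 on the log2 scale (adjusted p = 0.0459 by edgeR). That call sat at the threshold: it was lost when Fmn2-/- mice 2 and 3 were counted as 1 (adjusted p = 0.108), with lane as a covariate (0.324), after correcting for length and GC (0.133) and when the reads were drawn down to the smallest library (0.0707). Leaving out 1 mouse at a time it was kept without Fmn2+/+ mouse 2 (0.0102) or 3 (0.0317) and lost without Fmn2+/+ mouse 1 (0.325) or any 1 of the Fmn2-/- mice (0.078 to 0.112). Fmn2+/+ mouse 1 was the only 8-month mouse on its lane, so the lane covariate and its omission amount to 1 loss and not 2. That mouse had 43921030 reads, against 6818809 to 11675280 in the other 8-month mice. Of all 14665 genes tested 1.13% were called, beside 1 of the 6 members. At an unadjusted p under 0.05 were 3419 of them, beside 4 of the 6 members. How many of all genes separated the groups without overlap was not counted, in this or any other comparison. Such separations therefore only describe the members in these mice.

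Gfap at 8 months stood at 418, 439 and 548 CPM in Fmn2+/+ and at 619, 589, 583, 604 and 644 CPM in Fmn2-/- mice, again with every Fmn2-/- mouse higher. Its difference of 0.38 ± 0.092 on the log2 scale missed the threshold (adjusted p = 0.0569 by edgeR), passed it by DESeq2 (adjusted p = 0.00515) and passed it without Fmn2+/+ mouse 3 (0.52, adjusted p = 0.0094) or mouse 2 (0.34, adjusted p = 0.0242). Without mouse 2 the unadjusted p by edgeR was 0.00386, against 0.00117 in the full fit. That pass thus came from the adjustment over all genes and not from a stronger difference. With 1 mouse left out, 4 to 3087 of all genes were called, against 166. Osmr, the oncostatin M receptor, gave 0.56 (adjusted p = 0.122), with 3.33 to 6.55 CPM in Fmn2+/+ and 6.10 to 8.69 CPM in Fmn2-/- mice, ranges that overlapped through 1 mouse of each group. Serpina3n pointed the other way at -0.26 (adjusted p = 0.12), Vim at -0.30 and Cd44 at 0.03. Vim rested on Fmn2+/+ mouse 3, at 86.0 CPM against 38.9 and 36.2 CPM in the other 2, and without that mouse its fold change was 0.20. The same mouse had the highest summed level of the 5 meningeal fibroblast genes of the 8-month mice (380 CPM against 73.0 to 259 CPM). Meningeal fibroblasts also express Vim, and their part in the Vim value was not tested.

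Among the related lists at 8 months, 1 of 9 genes of the gp130 and STAT3 pathway was called, and it was lower: Cntfr, the binding subunit for ciliary neurotrophic factor, fell by 0.56 on the log2 scale (adjusted p = 0.0304 by edgeR). The A1-type list had 0 called of 11, the A2-type list 0 of 7, the other pan-reactive genes 0 of 4 and the astrocyte identity genes 0 of 13 (median 0.06). Of the other named genes, C1ql2, a synaptic protein gene of granule cells, fell by 0.65 on the log2 scale (adjusted p = 0.0434), and the neuronal splicing factor Rbfox3 (-0.30) and the endothelial receptor Flt1 (0.28) missed the threshold (adjusted p = 0.054 for each).

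**Figure D2:**
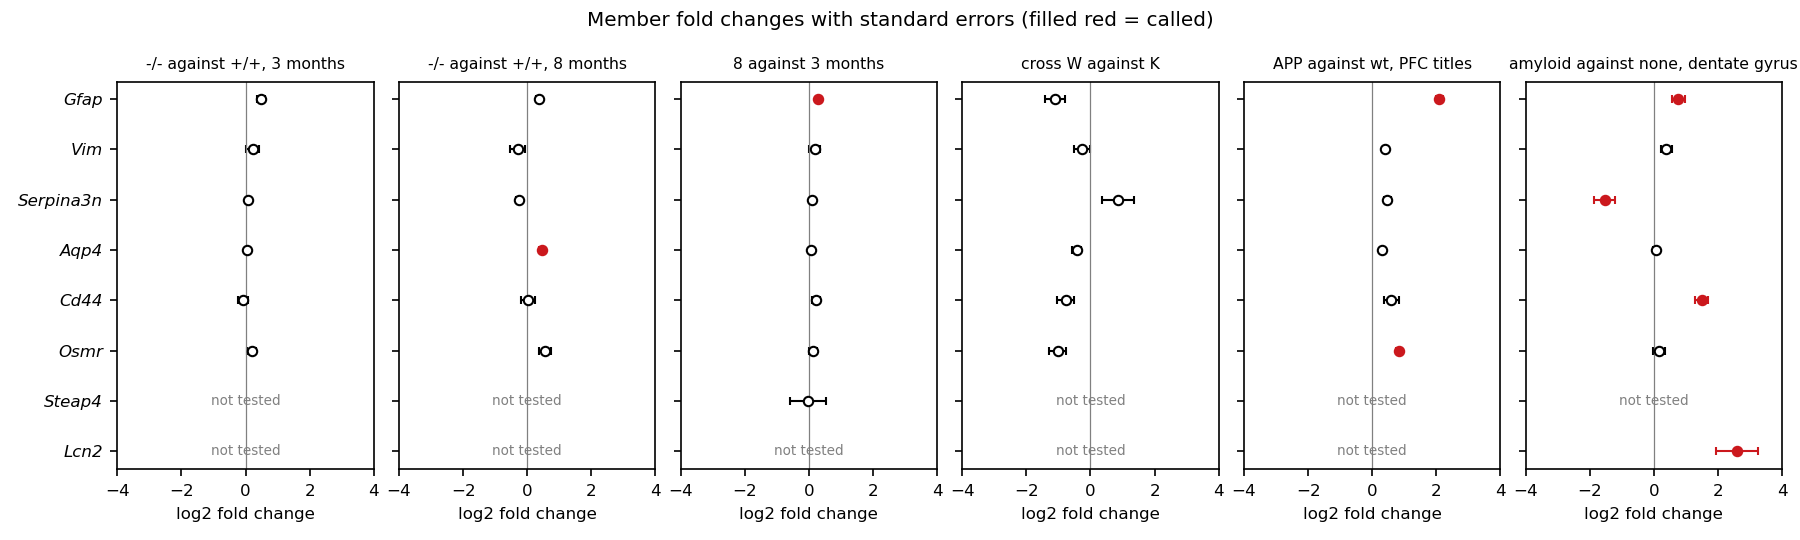
Log2 fold changes of the 8 genes with their standard errors in the Fmn2, age, cross and amyloid comparisons, with filled red points for members called at an adjusted p under 0.05 and the log2 threshold of the comparison. Gfap rises most in APP cortex (2.10 ± 0.11), and Serpina3n in the DG with amyloid lies below 0 (-1.53 ± 0.33). Values of the cross are W minus K, and the K mice had the low Fmn2 levels.

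The test of whether the Fmn2 effect differed between the ages called none of the 7 members it could test (2 at an unadjusted p under 0.05 and 2 by DESeq2), against 3.73% of 17046 genes. At an unadjusted p under 0.05 were 3910 of those 17046 genes. The effect at 8 months minus that at 3 months was 0.39 for Aqp4 (adjusted p = 0.0609), -0.35 for Serpina3n (adjusted p = 0.0713), -0.54 for Vim, 0.36 for Osmr, 0.12 for Cd44, -0.58 for Steap4 and -0.11 for Gfap. For Gfap the 2 genotype differences were thus side by side at 0.48 and 0.38, and a difference between the ages was not detectable. Without Fmn2+/+ mouse 2 of 8 months both Aqp4 and Serpina3n were called by edgeR, and without Fmn2-/- mouse 2 of 3 months Aqp4 alone. In the first of these fits the unadjusted p of Aqp4 was 0.00655, against 0.00314 in the full fit, so its call came from the adjustment over all genes. That of Serpina3n was 0.00144 against 0.00457. With 1 mouse left out, 8 to 2791 of all genes were called, against 635.

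Averaged over both genotypes, Gfap was higher in the DG of the older mice. At 8 months it exceeded the level at 3 months by 0.30 ± 0.086 on the log2 scale (adjusted p = 0.0249 by edgeR), the only called member of 7 against 6.3% of 17046 genes. The group means were 368 and 468 CPM in Fmn2+/+ mice and 513 and 608 CPM in Fmn2-/- mice of 3 and 8 months. Each single group overlapped its older or younger counterpart, so the call comes from the pooled ages, and it was lost without Fmn2+/+ mouse 3 of 8 months (0.23, adjusted p = 0.114) and held with Fmn2-/- mice 2 and 3 of that age counted as 1 (0.31, adjusted p = 0.0359). The other members tested lay between -0.03 (Steap4) and 0.22 (Cd44). In the other lists age called 1 gene higher of 4 pan-reactive genes, 1 of 11 A1-type, 1 of 10 A2-type and 1 of 10 microglial genes, the last of them Tyrobp (0.33 ± 0.073, adjusted p = 0.00552), and 0 of 10 of the gp130 and STAT3 pathway. The neuronal gene Rbfox3 fell by 0.31 on the log2 scale (adjusted p = 0.000114) and the astrocyte ion pump subunit Atp1b2 by 0.28 (adjusted p = 0.0167), while the meningeal gene Lum rose by 0.49 (adjusted p = 0.00799). Of the 13 astrocyte identity genes, Atp1b2 among them, 1 was called higher and 1 lower (median 0.02). Age and sequencing lane were nearly the same split and cannot be told apart.

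In the cortex mice APP transgenic mice were compared with wild type to measure the effect of amyloid, and Gfap and Osmr rose. Gfap stood at 54.0, 70.1, 67.6, 67.5, 54.3 and 50.8 CPM in the 6 wild type mice, close together, and at 257, 273, 294, 254, 294 and 179 CPM in the 6 APP mice. The lowest APP mouse was far above the highest wild type mouse, and Gfap rose by 2.10 ± 0.11 on the log2 scale (adjusted p = 9.25e-10 by edgeR). Osmr rose by 0.84 ± 0.095 (adjusted p = 1.25e-05), from 3.08 to 4.31 CPM in wild type to 6.19 to 7.33 CPM in APP mice, with no overlap. In the amyloid and tissue comparisons a call needed a log2 fold change of at least 0.5, and 2 of 6 members were called against 2.34% of 16733 genes. The other 4 also gave positive values: Vim 0.41 (adjusted p = 0.00299), Serpina3n 0.47 (adjusted p = 0.0256) and Aqp4 0.30 (adjusted p = 0.0032) passed the test but not the fold threshold, and Cd44 gave 0.60 (adjusted p = 0.202). The median of the 6 members was 0.53 against 0.00 for all genes. Steap4, at 0.117 to 0.271 CPM in wild type and 0.230 to 0.563 CPM in APP mice, had too few reads for the test. Each comparison in cortex was on 1 lane for APP and another for wild type, and lane and genotype cannot be told apart.

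Gfap and Osmr rose without a call among the genes that define resting astrocytes. Of the 13 astrocyte identity genes 0 were called (median -0.01), and their summed level was 5850 to 7120 CPM in APP against 6290 to 7460 CPM in wild type mice. The A1-type list had 6 called of 11, all higher (median 0.56), the A2-type list 1 of 9, the other pan-reactive genes 1 of 6 and the gp130 and STAT3 pathway 0 of 10. Microglial genes were higher in the same mice, with 11 of 12 called (median 0.96) and a summed level of 557 to 722 CPM against 293 to 324 CPM. Cst7, a cystatin of amyloid-associated microglia, rose by 7.81 ± 0.19 on the log2 scale, the lectin receptor Clec7a by 6.61 ± 0.26, the integrin Itgax by 5.11 ± 0.18 and the adaptor Tyrobp by 2.29 ± 0.089. Their part in the members' change was not tested. The transgene promoter gene Thy1 was at 1880 to 2410 CPM in APP and 717 to 784 CPM in wild type mice.

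Within the cross, the mice labelled FMN2-/-_APP were compared with those labelled FMN2 +/+ APP to ask what Fmn2 does in the presence of amyloid, and the Fmn2 levels above go against both labels. The K mice had the low Fmn2 levels, so a negative W minus K value means a higher level in the mice low in Fmn2. Gfap was at 529, 753, 384, 579, 402, 562 and 322 CPM in mice W1 to W7 and at 1050, 659, 1030, 721, 601, 728, 726, 1410 and 2840 CPM in mice K1 to K9. The highest W mouse reached into the lower K range, and K9 stood far above the next highest mouse, K8. K8 and K9 shared a lane on which the other cross mice had only the second runs of W7 and K7. Lane was thus not balanced between W and K mice, and its part in their levels was not tested. The difference, W minus K, was -1.11 ± 0.30 on the log2 scale and did not pass (adjusted p = 0.0662 by edgeR). It passed with scaling to astrocyte genes (-1.25, adjusted p = 0.0205) and by DESeq2 (adjusted p = 0.0206), and without K9 it was -0.78 (adjusted p = 0.0576). Osmr, at 2.76 to 8.27 CPM in W and 5.54 to 15.9 CPM in K mice, gave -1.02 ± 0.27 (adjusted p = 0.0652), and without W6, its highest W mouse, -1.26 (adjusted p = 0.0269). Cd44 gave -0.78 (adjusted p = 0.157), Aqp4 -0.43 (adjusted p = 0.118) and Vim -0.26 (adjusted p = 0.634). By edgeR 0 of 6 members were called (4 at an unadjusted p under 0.05, 2 by DESeq2 and 4 with scaling to astrocyte genes), against 0.774% of 16656 genes, and the median of the members was -0.61 against 0.01 for all genes. At an unadjusted p under 0.05 were 2772 of the 16656 genes. With scaling to astrocyte genes 68 of all genes were called higher and 475 lower.

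Microglial, choroid plexus and meningeal genes and the transgene promoter gene varied among the same mice. Clec7a was at 0.144 to 1.07 CPM in W and 0.590 to 5.97 CPM in K mice and was the only called gene of 11 microglial genes (-2.68 ± 0.57, adjusted p = 0.0267). The K mice with the highest Gfap, K9, K8, K1 and K3, were also among the 5 with the highest Clec7a (3.28, 5.97, 4.57 and 2.39 CPM). Thy1 was at 664 to 880 CPM in mice without amyloid and at 933 to 1890 CPM in 13 of the 16 cross mice, but at 782, 842 and 802 CPM in W1, W7 and K4. Without these 3 mice the Gfap difference was -1.08 (adjusted p = 0.196). The choroid plexus gene Ttr reached 8800 CPM in K4 and 5820 CPM in K5, the 2 mice with the highest Steap4 (1.0 and 1.14 CPM), against at most 0.835 CPM of Steap4 in the other cross mice. The summed meningeal genes were 59.2 to 352 CPM in W and 130 to 425 CPM in K mice, and W6 and K9, the highest of their groups for Vim (86.2 and 121 CPM), were at 352 and 388 CPM. The part of these cells in the members' values was not tested. Of the related lists 0 of 11 A1-type, 0 of 10 A2-type, 0 of 6 pan-reactive and 0 of 10 gp130 and STAT3 genes were called. Of the astrocyte identity genes 0 of 13 were called (median 0.14). The astrocyte metabolic gene Aldoc (0.31) and the growth factor receptor gene Fgfr3 (0.38) passed the test but not the fold threshold (adjusted p = 0.0211 and 0.0327), and C1ql2 rose by 0.59 (adjusted p = 0.0426).

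**Figure D3:**
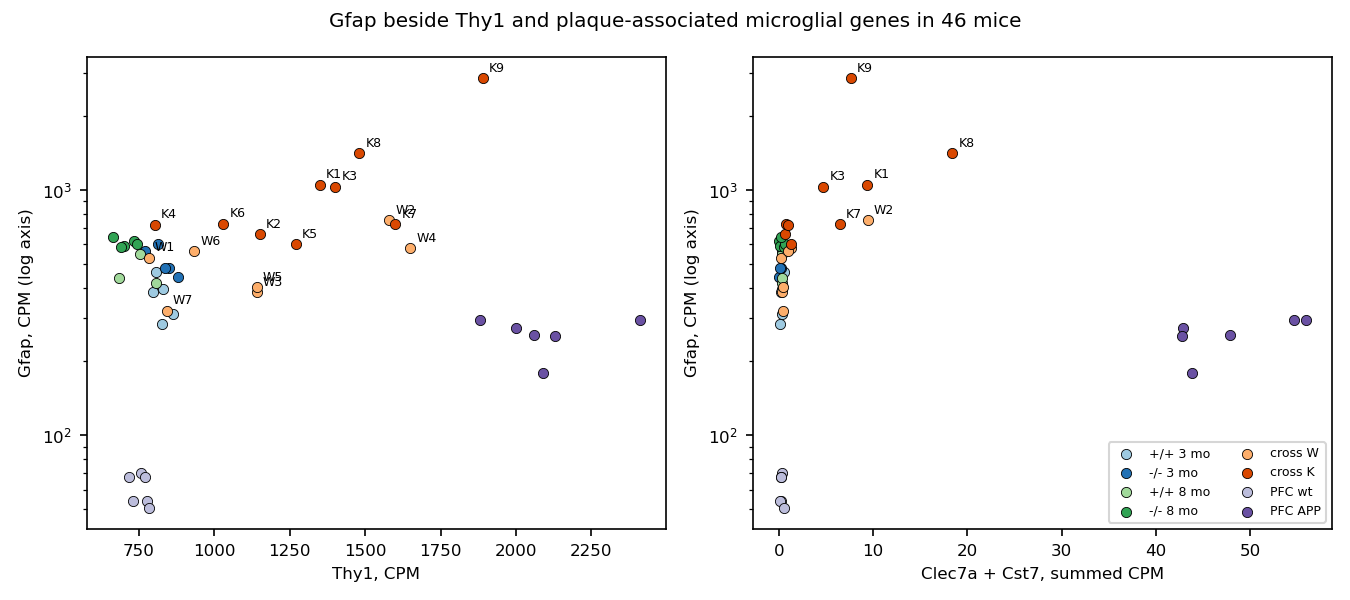
Gfap (CPM) against Thy1 (CPM) and against the summed level of Clec7a and Cst7 (CPM), with 1 point a mouse coloured by group. The 6 APP cortex mice have the highest Clec7a and Cst7 but a Gfap level of 179 to 294 CPM, below all 16 cross mice, and K9 stands apart at 2840 CPM of Gfap.

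Serpina3n split the cross mice in a way that the labels do not. It was at 442, 246, 63.2, 261, 65.5, 76.1 and 57.5 CPM in W1 to W7 and at 57.7, 49.9, 66.6, 56.3, 44.9, 55.1, 222, 61.5 and 254 CPM in K1 to K9. Mice W1, W2, W4, K7 and K9 thus lay at 222 CPM or above and the other 11 at 76.1 CPM or below, whereas all 18 mice of the Fmn2 experiments lay between 327 and 480 CPM. The W minus K difference was 0.85 ± 0.50 (adjusted p = 0.414). The summed level of 8 neighbouring Serpina3 paralogs was 20.6 to 34.0 CPM in the Fmn2 experiments, 14.9 to 32.2 CPM in W1, W2, W4 and K7, 5.12 CPM in K9 and 0.529 to 1.67 CPM in the other 11 cross mice. In K9 most of that sum was Serpina3g (4.12 CPM), with Serpina3m at 0.111 and Serpina3f at 0.167 CPM. These genes are paralogs, and whether reads were shared or lost between them was not tested, so the counts of Serpina3n are uncertain to that extent.

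**Figure D4:**
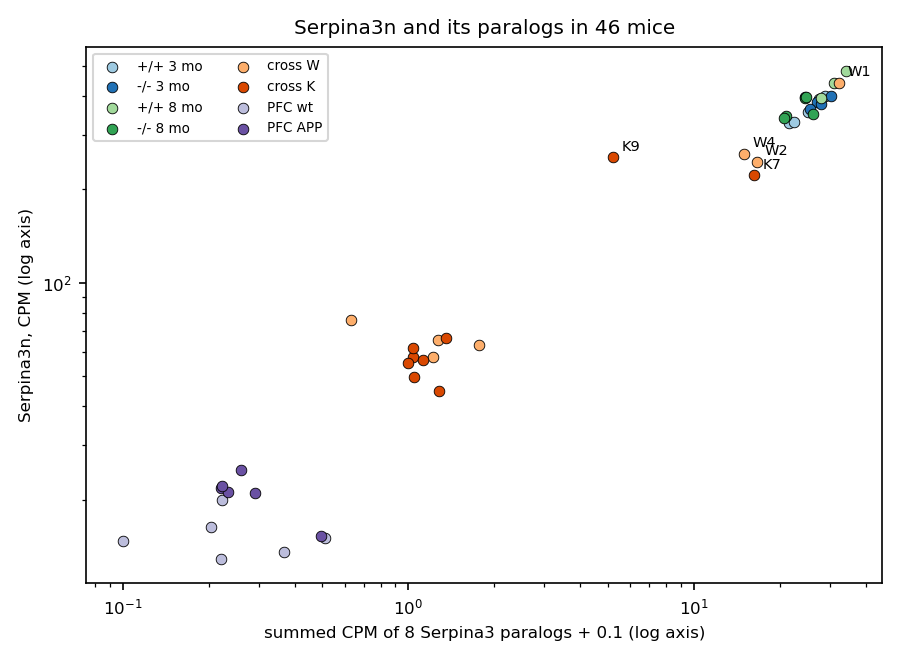
Serpina3n (CPM) against the summed level of 8 Serpina3 paralogs (CPM plus 0.1) on logarithmic axes, with 1 point a mouse coloured by group. Cross mice W1, W2, W4 and K7 lie towards the mice of the Fmn2 experiments. In Serpina3n W1 (442 CPM) lies within their range, and W2, W4 and K7 (222 to 261 CPM) lie below it. The other cross mice lie at 44.9 to 76.1 CPM except K9, and the cortex mice at the lower left.

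Amyloid in the young DG was measured by setting the 16 cross mice against the 10 mice of 3 months without amyloid, averaged over the Fmn2 groups as labelled. The cross mice include W1, W7 and K4, whose Thy1 lay within the range of mice without amyloid, and whether they carry amyloid was not tested. Of 7 members tested, Gfap, Cd44 and Lcn2 rose and Serpina3n fell, 4 calls against 16.5% of 17599 genes, and the median of the members was 0.39 against 0.02 for all genes. Gfap rose by 0.76 ± 0.20 on the log2 scale (adjusted p = 0.00299 by edgeR), although the W mice (322 to 753 CPM) overlapped both groups without amyloid. Cd44 rose by 1.49 ± 0.20 (adjusted p = 1.09e-06), from 3.08 to 5.31 CPM without amyloid to 3.47 to 13.5 CPM in W and 8.36 to 22.6 CPM in K mice, and every K mouse was higher than every mouse without amyloid. Lcn2 rose by 2.59 ± 0.66 (adjusted p = 0.00205), from 7 and 8 reads in the 2 groups without amyloid to 78 and 72 reads in W and K, and at 0 to 0.197 CPM against 0.0369 to 1.11 CPM its ranges overlapped. Serpina3n fell by 1.53 ± 0.33 on the log2 scale (adjusted p = 0.000356), with the 5 high cross mice described above included. Vim gave 0.39 (adjusted p = 0.0746), Osmr 0.15 and Aqp4 0.06. Gfap, Cd44 and Serpina3n kept their calls in all 10 other settings, among them the fit without W1, W7 and K4. Lcn2 kept its call in the 8 settings that tested it.

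The mice with amyloid came from the cross and those without it from the Fmn2 experiments, so amyloid and experiment cannot be told apart in these values. The labels do not say whether they were sequenced as separate batches. Neuronal genes were lower in the same comparison: the presynaptic genes Snap25 and Syt1 fell by 1.0 and 0.84 on the log2 scale (adjusted p = 1.09e-11 and 4.9e-11), and the summed level of 4 neuronal genes was 3080 to 4330 CPM in the cross against 5660 to 8060 CPM without amyloid. C1ql2 rose by 1.03 (adjusted p = 5.16e-08) and Cd109 of the A2-type list fell by 1.90 on the log2 scale (adjusted p = 1.77e-08). The A1-type list had 6 of 11 called, all higher (median 0.52), the A2-type list 5 higher and 2 lower of 10, the other pan-reactive genes 1 of 6, the gp130 and STAT3 pathway 0 of 10 and the astrocyte identity genes 1 of 13 (median 0.04). Microglial genes had 7 of 12 called, all higher, with a summed level of 261 to 475 CPM in the cross against 242 to 324 CPM. With scaling to astrocyte genes the median of all genes was -0.11 on the log2 scale. Relative to the genes as a whole, the 4 called members kept their direction in every alternative fit that tested them.

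The amyloid effect in cortex exceeded that in the DG by 1.33 ± 0.31 for Gfap (adjusted p = 0.00166 by edgeR) and by 1.99 ± 0.53 for Serpina3n (adjusted p = 0.005), whereas for Lcn2 it was lower by 2.90 ± 1.0 (log2 difference -2.90, adjusted p = 0.0379). These 3 of 8 members were called against 11.1% of 18276 genes. The Lcn2 call was lost in 9 of 38 fits that left out 1 mouse (adjusted p 0.0507 to 0.0812) and rests on few reads. Cd44 (-0.89, adjusted p = 0.0585), Osmr (0.68, adjusted p = 0.0721), Steap4 (0.64), Aqp4 (0.24) and Vim (0.02) were not called. Cd44 gained a call in 7 of the 38 fits that left out 1 mouse and in 5 of 10 other settings, and Osmr in 3 and 3, in the same direction. Tissue, age and experiment differ together between the 2 sets of mice, and their parts cannot be told apart.

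Without amyloid 4 members were lower in cortex than in the DG, taken from Fmn2+/+ mice of 3 months. Serpina3n was at 12.9 to 20 CPM against 327 to 401 CPM (log2 fold change -4.57, adjusted p = 2.89e-10 by edgeR), Gfap at 50.8 to 70.1 against 285 to 463 CPM (-2.62, adjusted p = 2.26e-10), Aqp4 at 78.8 to 94.1 against 175 to 213 CPM (-1.12, adjusted p = 7.49e-10) and Vim at 21.5 to 29.5 against 26.7 to 49.6 CPM (-0.68, adjusted p = 0.0118). These 4 of 8 were called, all lower, against 43.8% of 18276 genes called in either direction (4395 higher and 3615 lower). Of 6 granule cell genes 5 were called lower and 1 higher. Dsp, C1ql2 and Prox1, among those lower, fell by 9.70, 6.75 and 4.06 on the log2 scale. Of 13 astrocyte identity genes 2 were called lower and 1 higher (median -0.03). Gja1, among those lower, fell by 0.83 on the same scale. Cd44 (-0.43), Osmr (-0.45), Steap4 (0.56) and Lcn2 (1.74) were not called, and tissue, age and experiment cannot be told apart here either.

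Across the 46 mice, after the mean of each group was subtracted, the members varied together to different degrees, which is given as a description because mice share lanes and dissection. Pearson's r of log2(CPM + 0.5) was 0.73 between Aqp4 and Osmr, 0.72 between Gfap and Vim, 0.70 between Gfap and Osmr and 0.69 between Vim and Osmr. Among 14755 genes with a mean of at least 1 CPM, those most like Gfap were the complement gene C4b (0.83), Serpinf2 (0.80) and the microglial complement gene C1qb (0.75). Among the 3 most like Vim were Bgn (0.89) and Cp (0.88), genes also made by meningeal and vascular cells. Serpina3n was most like its paralogs Serpina3m (0.85), Serpina3f (0.84) and Serpina3k (0.84). Aqp4 was most like Msn (0.78), Osmr (0.73) and Wwtr1 (0.70). Gfap and Vim, both filament genes, thus had different nearest genes.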

How the data were processed

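RNA from whole tissue was isolated with TRIZOL and made into TruSeq RNA v2 libraries. The authors aligned the reads with STAR to mm10 and counted them on genes with HTSeq in the intersection-nonempty mode, and the deposited values are these raw read counts per Ensembl gene. The annotation and strand setting of the counting are not given in the sources used here. In each cross group 1 mouse had 2 runs, which were summed. Gene names, exon lengths and GC content came from GENCODE M21, and 48349 of 48709 genes matched.

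Counts were tested with edgeR 4.0.16 in R 4.3.3 (filterByExpr, TMM scaling, glmQLFit and glmQLFTest), fitted over all genes of each comparison, with Benjamini-Hochberg adjustment over all genes tested. Calls needed an adjusted p under 0.05 and a log2 fold change of at least 0.25 (Fmn2 and age) or 0.5 (amyloid and tissue). Standard errors are the fold change divided by the square root of the F value. All 8 members were to be reported in every comparison, and those that the filter left untested are given from fits without it. Counts of calls were given for only some of the other lists and comparisons. At most 4 genes of these lists were named a comparison, those with the smallest unadjusted p. Fmn2, Thy1, Clec7a, Cst7, Ttr, Prox1, the Serpina3 paralogs and the summed cell type markers were given where they moved with a result. The 3 genes most like a member were named for 4 members, apart from 1 gene that is not reported here. The 8 members and the lists were chosen with earlier results of these data known. The test was checked on simulated data with known changes. Groups follow the labels, and where nothing names separate cultures or litters, p-values measure the spread between these mice. Depth was 6818809 to 43921030 reads per mouse.

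Correlations over 0.1 between same-numbered mice were found in 1 of 4, 0 of 3, 3 of 7 and 2 of 6 pairs, so the numbers were not taken to pair mice. In the cross, where same-numbered mice shared lanes, the mean correlation was 0.064 for same-numbered and -0.00764 for different-numbered mice. Alternatives were DESeq2 1.42.0, RLE scaling, scaling to astrocyte identity genes, no filter on low counts, a length and GC correction, a replicate block, a lane covariate, reads drawn down to the smallest library and each mouse left out in turn. Chosen after seeing the data were the fits without W1, W7 and K4, without K4 and K5, and without W1, W2, W4 and K7.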

Additional observations from a re-analysis of the deposited data

Results flagged for a closer look

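Within groups of 4 to 10 mice, 56 sets of member values were checked for a mouse far from its neighbours, and 9 passed Dixon's critical value, where chance gives about 1 in 20. Gfap in K9 was 2840 CPM against 1410 CPM in the next mouse of its group, and Vim in K9 was 121 CPM against 69.9 CPM. In W6, Vim was 86.2 CPM (next mouse 52.2), Aqp4 230 CPM (179) and Osmr 8.27 CPM (4.72). In APP cortex mouse 6, Gfap was 179 CPM (next 254) and Vim 26.9 CPM (next 33.5), both below the other 5 mice. Steap4 was 0.762 CPM (next 0.256) in Fmn2-/- mouse 2 of 8 months and Lcn2 0.197 CPM (next 0.0366) in Fmn2-/- mouse 2 of 3 months, values of few reads each. Thus 7 of the 9 came from 3 mice, K9, W6 and APP cortex mouse 6. The summed meningeal genes were 388 CPM in K9 and 352 CPM in W6, the latter the highest of its group, and the part of such cells in the values was not tested.

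The effect of amyloid differed between the cortex mice and the DG mice for 3 members by the interaction test in edgeR. The log2 difference, cortex minus DG, was 1.33 for Gfap (adjusted p = 0.00166), 1.99 for Serpina3n (adjusted p = 0.005) and -2.90 for Lcn2 (adjusted p = 0.0379). Tissue, age and experiment cannot be told apart in these differences.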

How the results depend on the processing

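Over 61 tests of a member in a comparison, 1850 alternative fits were computed, of which 1741 kept direction and side of the threshold, 27 lost the call, 38 gained it and 44 changed sign, all 44 not called in either fit. Members called moved in these fits, and the cause was not tested. At 3 months DESeq2 called 1 member against 0. At 8 months the count of 1 became 2 by DESeq2 and 2 with no filter on low counts, and 0 with the replicate block, with the length and GC correction, with both together, with the lane covariate, with mice 2 and 3 summed and with reads drawn down. The age by genotype test gave 2 by DESeq2 against 0, age gave 0 with the replicate block against 1, and the cross gave 2 by DESeq2 and 4 with astrocyte scaling against 0. The replicate block changed 3 further calls, all in the amyloid effect between tissues: Lcn2 lost it (-2.63, adjusted p = 0.0584), and Cd44 (-0.93, adjusted p = 0.046) and Osmr (0.83, adjusted p = 0.00995) gained it. Leaving out 1 mouse gave 0 to 3 at 8 months, 0 to 2 for age by genotype, 0 to 2 for age, 0 to 1 in the cross and 2 to 5 for cortex against DG.

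Sign changes of log2 values, none called in either fit, were at 8 months, Cd44 -0.12 (length and GC), -0.10 (with the block) and -0.01 (astrocyte scaling). For age by genotype they were Gfap 0.03 and 0.01 and Cd44 -0.06 and -0.16 (length and GC, without and with the block), and for age Steap4 0.03 (DESeq2). In the cross they were Vim 0.01 (block with length and GC) and Serpina3n -0.29 (without W1, W2, W4 and K7, which were also high in Serpina3n, so this value is no test of it). For amyloid in the DG they were Aqp4 -0.01 (block) and -0.06 (astrocyte scaling) and Osmr -0.01 (block), and between tissues Vim -0.01 (length and GC), -0.02 (without W1, W7 and K4) and -0.04 (without K4 and K5). Leaving out 1 mouse gave Cd44 -0.16 to 0.08 at 3 months, Cd44 -0.16 to 0.28 and Vim -0.52 to 0.20 at 8 months, Gfap -0.18 to 0.05, Cd44 -0.07 to 0.37 and Steap4 -1.20 to 0.18 for age by genotype, Vim -0.06 to 0.30 and Steap4 -0.41 to 0.27 for age, and Vim -0.05 to 0.11 between tissues.

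Counts over all genes moved more than those of the members: 5 called at 3 months became 2 to 91 under other settings, 166 at 8 months became 3 to 1124 (4 to 3087 with 1 mouse left out), 635 for age by genotype became 0 to 1401 and 129 in the cross became 56 to 543. Scaling to astrocyte genes moved the median of all genes to -0.14 in the cross, -0.11 for amyloid in the DG and 0.12 between tissues, and the split of higher and lower calls from 73 and 56 to 68 and 475, from 1628 and 1277 to 1027 and 2122, and from 968 and 1063 to 1730 and 575. It moved it from 37 and 129 to 23 and 198 at 8 months and from 599 and 475 to 290 and 577 for age. Depth limits Steap4 and Lcn2, which most comparisons could not test.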
